A study of Mus musculus with 16 samples.

Results

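Collagen genes were followed through 16 RNA-seq libraries of endothelial cells (ECs) that were sorted from mouse long bone. A gene counted as a collagen where its symbol consists of Col, a number, the letter a and a further number, and no measured value entered this choice. The rule gave 44 genes in each of the 3 data sets, out of 38926 gene names in the table of metaphyseal and marrow ECs, 38922 in the Lats2 table and 21603 Ensembl gene identifiers in the Yap1/Taz files. By protein class they comprised 11 fibrillar collagens, 8 basement membrane collagens, 9 fibril-associated collagens, 8 collagens of types VI, VII and XXVIII, 3 short-chain network collagens and 5 transmembrane or other collagens.

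The first comparison set 3 libraries of bmECs, sorted from the marrow of the diaphysis, against 3 libraries of mpECs, sorted from the metaphysis, the zone of bone growth next to the growth plate. Both came from 3-week-old wildtype C57BL/6 mice and were sorted, per the study's methods, by a reporter that the Cdh5 promoter drives in ECs. The second set 3 libraries labelled Yap1/Taz iΔEC (Yap1flx/flx; Wwtr1flx/flx with Cdh5CreERT2) against 3 libraries of Cre-negative animals with the same floxed alleles, all at postnatal day 21. The third set 2 libraries of Lats2 iΔEC mice (Lats2flx/flx with Cdh5CreERT2) against 2 libraries of Cre-negative Lats2flx/flx animals, also of C57BL/6 background and 3-week-old per the methods. Cdh5CreERT2 is a Cre recombinase that acts in ECs once tamoxifen is given, so both iΔEC models recombine after birth and in ECs only as far as that driver reaches. The methods state that male C57BL/6J mice served for the analysis of wildtype bone, and also that animals were grouped irrespective of sex. The labels do not say whether the libraries of a group came from separate animals, so p-values measure only the spread between these libraries.

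Collagens are secreted or membrane-bound proteins of the extracellular matrix, each built from alpha chains that wind into a triple helix. Blood vessels rest on a basement membrane whose network is made of type IV collagen, in most vessels from the chains encoded by Col4a1 and Col4a2, and which also holds the heparan sulfate and chondroitin sulfate bearing collagens XVIII (Col18a1, the source of endostatin) and XV (Col15a1). Fibrillar collagens form the cables of connective tissue. Type I (Col1a1, Col1a2) is the main protein of bone and a product of osteoblasts. Type II (Col2a1) is that of cartilage, together with type XI and the fibril-associated type IX. Types III and V join type I in the vessel wall and in soft tissue. The Hippo pathway kinase Lats2 phosphorylates the co-activators Yap1 and Taz, the latter encoded by Wwtr1, and thereby keeps them from acting with TEAD factors on DNA.

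Values are FPKM, which express a gene's fragments relative to its length and to the size of the library. Read totals estimated from them ran from 11135239 to 14730235 per library in the mpEC and bmEC table, from 4882454 to 7149026 in the Yap1/Taz files and from 4729328 to 7070979 in the Lats2 table, so that 1 read in a gene of 2000 bases was worth 0.0405 to 0.0609, 0.0728 to 0.107 and 0.0841 to 0.133 FPKM, respectively. All 10 endothelial markers were above the test filter in each table, and blood RNA was present throughout. Blood markers, 8 genes led by red cell Hbb-bs, summed to 17985 to 36467 FPKM in mpECs and 22565 to 30316 FPKM in bmECs. Endothelial markers summed to 1196 to 1529 and 1347 to 1384 FPKM there, respectively. In the Yap1/Taz files the blood sum was 3674 to 4593 FPKM in the controls and 3679 to 5568 FPKM in the libraries labelled iΔEC. In the Yap1/Taz files Wwtr1 was 10.01, 9.88 and 10.3 FPKM in the controls and 15.3, 19.6 and 19.5 FPKM in the libraries labelled iΔEC, a log2 difference of 0.78 (SE 0.12, adjusted p = 0.0272 by limma, the test used throughout), and Yap1 lay at 0.995 to 1.62 against 0.989 to 1.43 FPKM. The FPKM of Wwtr1 thus went against the label, and each direction below is that of the libraries labelled Yap1/Taz iΔEC. These FPKM cover a whole gene, so neither here nor for Lats2 below do they measure the floxed part alone. By quantitative PCR, a different measure, the study itself reports less Yap1 and Wwtr1 transcript in bone ECs isolated from these mutants. It also reports weaker Yap1 immunostaining in their bone vessels. Lats2 was 23.4 and 24.0 FPKM in its controls and 19.2 and 19.2 FPKM in Lats2 iΔEC (log2 difference -0.29, SE 0.11, adjusted p = 0.125), and Wwtr1 was higher there by 0.63 (SE 0.12, adjusted p = 0.0257). For Lats2 too the study reports a significant loss of transcript in bone ECs isolated from the mutants.

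**Figure D1:**
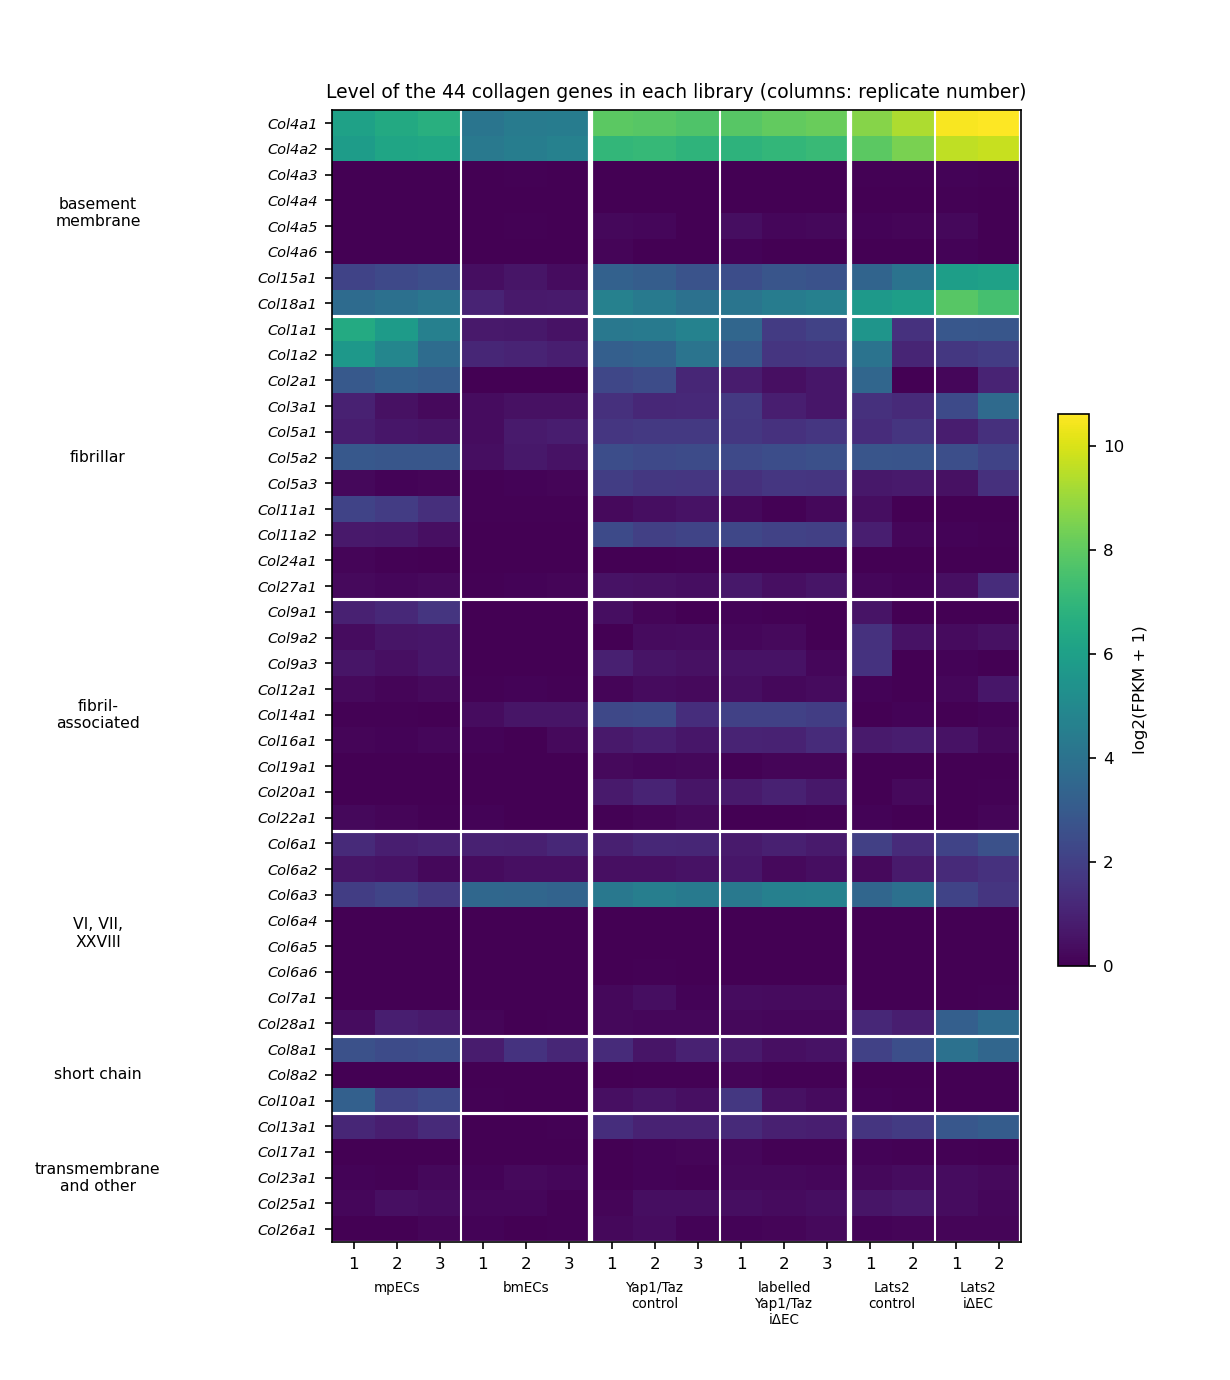
Level of the 44 collagen genes as log2(FPKM + 1), 1 column per library and 1 row per gene, ordered by protein class. Col4a1 and Col4a2 are the brightest rows in the Yap1/Taz and Lats2 libraries, while Col1a1 exceeds Col4a1 in mpEC replicate 1 alone, where it reached 88.5 FPKM.

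Basement membrane collagens made up most of the collagen signal in nearly every library. They held 43.4% to 74.0% of the summed collagen FPKM in mpECs and 68.8% to 73.7% in bmECs, 80.2% to 84.2% in the Yap1/Taz controls and 87.1% to 96.3% in the Lats2 controls. Within that class the signal came from 4 genes, Col4a1, Col4a2, Col15a1 and Col18a1. The other type IV chains (Col4a3 to Col4a6), which build the basement membranes of kidney glomeruli and some epithelia, stayed at or below 0.319 FPKM in each of the 16 libraries. Of the 44 genes, 9 passed the filter of a mean of at least 1 FPKM in all 3 comparisons, 21 passed in at least 1 and 23 in none. Col6a4 and Col6a5, chains of type VI collagen, were listed at 0 in every library.

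The comparison of bmECs with mpECs asks how the collagens of marrow vessels differ from those of growing metaphyseal vessels. All basement membrane collagens that could be tested were lower in bmECs, and so were type I collagen, the cartilage collagens and Col8a1, whereas Col6a3 was higher. In numbers, 11 of the 13 collagens tested were lower and 1 was higher, in a comparison in which 10.5% of all 11422 tested genes fell and 13% rose at an adjusted p under 0.05. The same numbers of collagens passed a stricter call (adjusted p under 0.01 and a log2 difference over 0.5), which 11.7% of genes passed. The filter bears on this count, because 7 of the 13, all of them lower, had a mean of at least 1 FPKM in mpECs alone. Of the 6 with such a mean in both groups (Col1a2, Col4a1, Col4a2, Col6a1, Col6a3 and Col8a1), 4 were lower and 1 was higher.

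Col4a1 measured 66.0, 85.5 and 103 FPKM in mpECs and 16.5, 20.7 and 20.7 FPKM in bmECs. Its partner Col4a2 measured 57.0, 75.8 and 78.8 FPKM against 18.4, 21.8 and 24.3 FPKM. In both genes every bmEC library lay below every mpEC library, as the groups of 41.3% of all tested genes were apart (19.2% with bmECs lower, 22.1% with bmECs higher). On the log2(FPKM + 1) scale, which understates the change of low values, the differences were -2.06 (SE 0.17, adjusted p = 0.000137) for Col4a1 and -1.66 (SE 0.15, adjusted p = 0.000206) for Col4a2, or 4.40-fold and 3.28-fold by the ratio of means. The transcripts therefore did not keep their proportion, since Col4a1 was 1.13 to 1.31 times Col4a2 in mpECs and 0.854 to 0.950 times in bmECs. The genes lie head to head on chr8 (GRCm38, GENCODE M21), Col4a1 at chr8:11198423-11312826 on the minus strand and Col4a2 at chr8:11312805-11449287 on the plus strand, with 21 bases between their start sites and overlapping 5′ ends.

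Col18a1 fell further, from 12.2, 14.3 and 17.2 FPKM in mpECs to 1.07, 0.648 and 0.714 FPKM in bmECs. Col15a1 measured 3.39, 4.03 and 4.88 FPKM in mpECs and 0.306, 0.533 and 0.281 FPKM in bmECs. No bmEC library came near the lowest mpEC library in either gene. The log2 differences were -3.10 (SE 0.15, adjusted p = 2.18e-05) for Col18a1, a 17.9-fold ratio of means, and -1.89 (SE 0.16, adjusted p = 0.000151) for Col15a1, a ratio of 10.98. Over the 4 basement membrane collagens tested the median difference was -1.98, beside a median of 0.00 over all genes tested to 2 decimals. The filter bears on this median, because Col18a1 and Col15a1 had a mean of at least 1 FPKM in mpECs alone. Without a filter it was -0.83 over 8 genes.

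Among fibrillar collagens the type I chains spanned the widest range. Col1a1 measured 88.5, 55.3 and 23.9 FPKM in mpECs and 0.667, 0.628 and 0.453 FPKM in bmECs. Col1a2 measured 49.7, 28.2 and 12.3 FPKM against 1.23, 1.11 and 0.840 FPKM. The mpEC libraries thus differed among themselves by more than the type IV genes did, and in the opposite order, since replicate 1 was highest for type I and lowest for Col4a1 and Col4a2. The log2 differences were -4.99 (SE 0.40, adjusted p = 0.000127) for Col1a1 and -3.72 (SE 0.41, adjusted p = 0.000600) for Col1a2. Type I collagen is a trimer of mostly 2 Col1a1 chains with 1 Col1a2 chain. By RNA, which does not measure the protein, Col1a1 was 1.78 to 1.96 times Col1a2 in mpECs but 0.539 to 0.568 times in bmECs. In sum, osteoblast lineage markers moved with type I: 10 genes led by Bglap (osteocalcin) summed to 863, 382 and 224 FPKM in mpEC replicates 1 to 3 and to 44.3 to 59.2 FPKM in bmECs, with no marker at 0 in every library and 4 of the 6 tested lower. Ibsp made up most of the bmEC sum and overlapped between the groups. It measured 106, 40.6 and 32.8 FPKM in mpECs and 38.8, 46.8 and 38.4 FPKM in bmECs (log2 difference -0.33, SE 0.38, adjusted p = 0.565). The part of these markers in the type I difference was not tested, and fewer cells of a type and less RNA per cell cannot be told apart in bulk libraries.

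**Figure D2:**
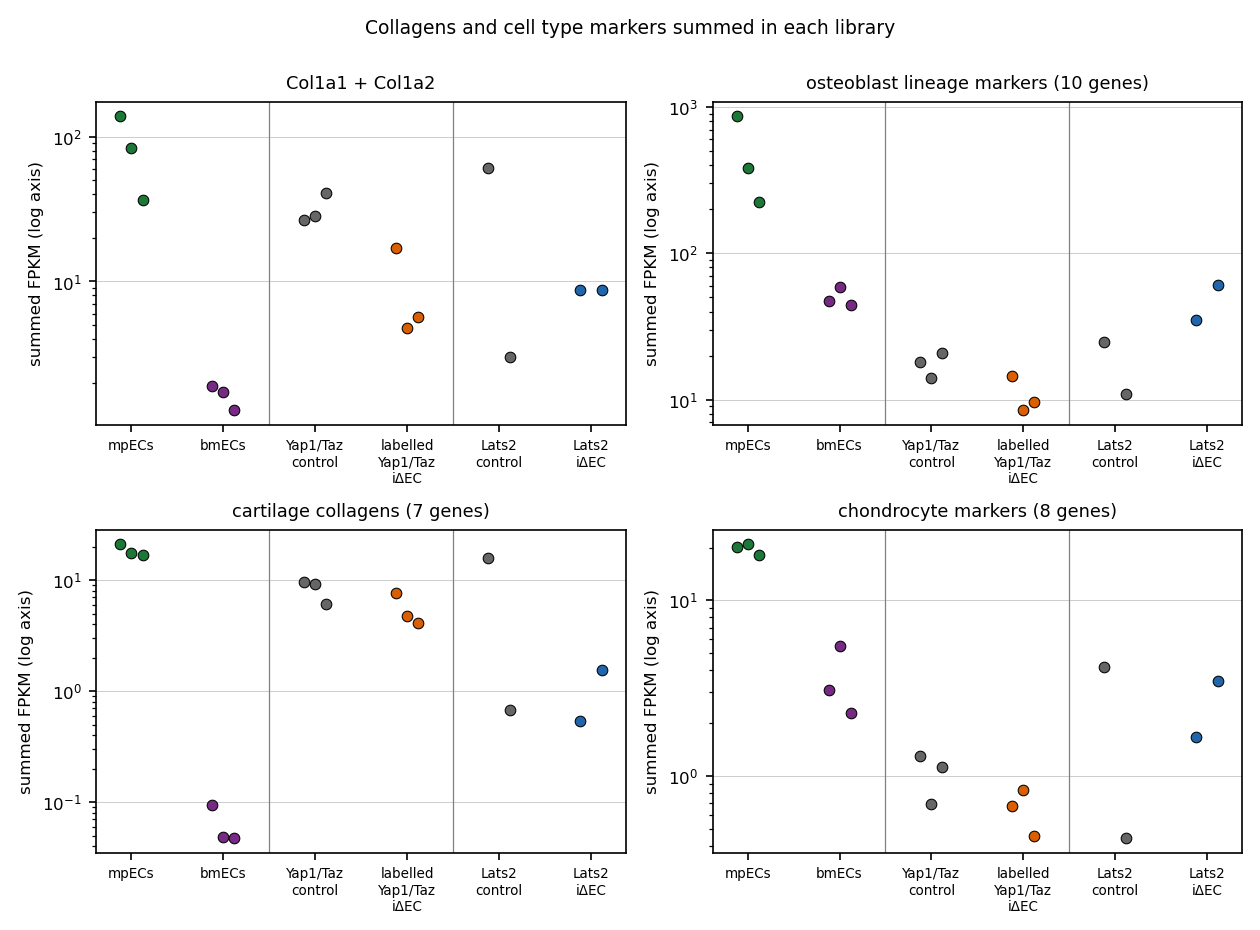
Summed FPKM per library on log axes for type I collagen, osteoblast lineage markers, cartilage collagens and chondrocyte markers, 1 point per library with replicates in order from left to right. In mpECs type I collagen (138, 83.5 and 36.3 FPKM) and the osteoblast markers fall in the same order of libraries, and Lats2 control replicate 1 stands far above replicate 2 for both collagen sums.

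Col5a2, a chain of the type V collagen that regulates the width of type I fibrils, was even across mpECs at 6.68, 6.26 and 6.23 FPKM and measured 0.304, 0.606 and 0.434 FPKM in bmECs (log2 difference -2.36, SE 0.13, adjusted p = 2.72e-05). Its partner Col5a1 was under the filter, with 0.485 to 0.782 FPKM in mpECs and 0.286 to 0.781 FPKM in bmECs, and the groups overlapped. The same held for Col3a1, at 0.197 to 0.956 against 0.261 to 0.406 FPKM. Of the other fibrillar collagens under the filter, Col11a2 and Col27a1 were separated with mpECs higher, and Col5a3 and Col24a1 overlapped between the groups.

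The collagens of cartilage, a grouping of 7 genes formed after the values were seen, were at or near 0 in bmECs. Col2a1 measured 6.85, 8.68 and 7.41 FPKM in mpECs and was listed at 0 in all 3 bmEC libraries. Its fitted difference of -3.11 (SE 0.13, adjusted p = 1.22e-05) depends on the pseudocount and bounds no fold. Col10a1, the collagen of hypertrophic chondrocytes, measured 8.45, 3.23 and 4.08 FPKM in mpECs and was above 0 in bmEC replicate 1 alone, at 0.0388 FPKM. Col11a1 measured 3.40, 2.72 and 1.67 FPKM against 0.0328 to 0.0377 FPKM (log2 difference -1.77, SE 0.20, adjusted p = 0.000617). Col9a1, Col9a2 and Col9a3, at 0.288 to 2.07 FPKM in mpECs and under the filter, were each listed at 0 in all bmEC libraries. Chondrocyte markers, 8 genes led by Hapln1, summed to 18.2 to 20.9 FPKM in mpECs and 2.29 to 5.48 FPKM in bmECs, with 4 of the 5 tested lower. The fifth, Cytl1, was higher at 2.99, 5.10 and 2.09 FPKM in bmECs against 0 to 0.582 FPKM in mpECs (log2 difference 1.77, SE 0.27, adjusted p = 0.00290) and made up most of the bmEC sum. The part of chondrocytes in these values was not tested. Col2a1 is itself the median of the 5 fibrillar genes tested (-3.11). The median was -3.04 without it and -2.36 without the type I chains. Of the 5 genes only Col1a2 had a mean of at least 1 FPKM in both groups, so the filter bears on these medians too. Without a filter the fibrillar median was -0.58 over 11 genes.

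Type VI collagen, which forms beaded filaments around cells, went the other way in 1 of its chains. Col6a3 measured 2.78, 3.49 and 2.38 FPKM in mpECs and 10.7, 10.3 and 9.33 FPKM in bmECs, with no overlap (log2 difference 1.52, SE 0.13, adjusted p = 0.000168). Col6a1 measured 0.870 to 1.42 FPKM in mpECs and 0.893 to 1.26 FPKM in bmECs (log2 difference -0.04, SE 0.16, adjusted p = 0.874). Col6a2 was under the filter at 0.173 to 0.525 against 0.248 to 0.347 FPKM. A type VI monomer takes 1 chain of each kind. By RNA, which does not measure the assembled chains, Col6a3 was 1.95 to 4.02 times Col6a1 in mpECs and 7.40 to 11.5 times in bmECs. With Col6a3 in it, the class of types VI, VII and XXVIII held 1.55% to 1.88% of the collagen signal in mpECs and 17.6% to 22.9% in bmECs. Markers of pericytes and marrow stroma, 11 genes led by Kcnj8, stood beside it at 225 to 315 FPKM in sum in mpECs and 661 to 694 FPKM in bmECs, with none at 0 throughout. Kcnj8 (means of 166 in mpECs and 454 FPKM in bmECs) and Abcc9 (55.9 and 171 FPKM) made up most of the sums. With Lepr they were the 3 of the 6 tested that were higher. Acta2, Rgs5 and Cxcl12 lay lower without passing the test (log2 differences -0.86, -1.52 and -0.15). The remaining markers on this list were under the filter and did not rise as a set. By group mean, with mpECs first, Pdgfrb lay at 0.119 and 0.117, Notch3 at 0.0293 and 0.0279 and Cspg4 at 0.0427 and 0.00876 FPKM. Pdgfra (0.235 and 0.439) and Des (0 and 0.105) lay higher in bmECs, also at low values. The part of these markers in the Col6a3 difference was not tested.

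Col8a1, a short-chain network collagen of the vascular subendothelium, was lower in bmECs, with 5.28, 4.45 and 4.84 FPKM in mpECs and 0.737, 1.97 and 1.23 FPKM in bmECs (log2 difference -1.37, SE 0.20, adjusted p = 0.00194). Col13a1, a transmembrane collagen, was under the filter at 0.871 to 1.39 FPKM in mpECs and 0 to 0.0369 FPKM in bmECs. Col28a1 measured 0.281 to 0.840 against 0 to 0.0993 FPKM. Both were separated with mpECs higher, whereas Col14a1, a fibril-associated collagen, was separated with bmECs higher at 0 to 0.0429 against 0.277 to 0.528 FPKM.

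The summed fibrillar FPKM was 1.14, 0.573 and 0.259 times the summed basement membrane FPKM in mpEC replicates 1 to 3, and 0.0803, 0.0827 and 0.0691 times in bmECs. The groups did not overlap, and the mean log2 difference of this ratio was -2.84, given as a description with no test. Without Col1a1 and Col1a2 the mean difference of the ratio was -1.56, with 0.0816 to 0.143 in mpECs and 0.0280 to 0.0430 in bmECs.

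Genes that fold and finish collagens were mixed. Of 18 tested genes for folding and modification in the endoplasmic reticulum, 2 were higher and 5 lower in bmECs. The count of 2 rests on Crtap at an adjusted p of 0.0497, and it was 1 with a pseudocount of 0.1, without a filter, with a filter at 5 FPKM, with quantile normalization, after rescaling to TPM, without the trend and at the stricter call, and 1 to 3 on leaving out 1 library. Leprel1, a prolyl 3-hydroxylase also named P3h2, was 2.31 to 3.34 FPKM in mpECs and 6.17 to 7.15 FPKM in bmECs (log2 difference 1.03, SE 0.13, adjusted p = 0.00116). Colgalt2, a collagen galactosyltransferase, differed by -1.88 (SE 0.17, adjusted p = 0.000229) and Plod2, a lysyl hydroxylase, by -0.99 (SE 0.14, adjusted p = 0.00169). Among 10 tested genes for processing and crosslinking outside the cell, 2 were higher and 4 lower, with Bmp1, the procollagen C-proteinase, at 5.26 to 6.66 FPKM in mpECs and 0.535 to 0.582 FPKM in bmECs. The leucine-rich proteoglycans Lum (log2 difference -3.25, SE 0.39) and Fmod (-1.83, SE 0.18), which bind type I fibrils, were lower as well. Of 5 collagen receptors tested, Itga1 was higher by 1.20 (SE 0.11), whereas Itga2 and Itgb1 fell by 0.94 (SE 0.13) and 0.63 (SE 0.10), each with an adjusted p of 0.00256 or less.

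**Figure D3:**
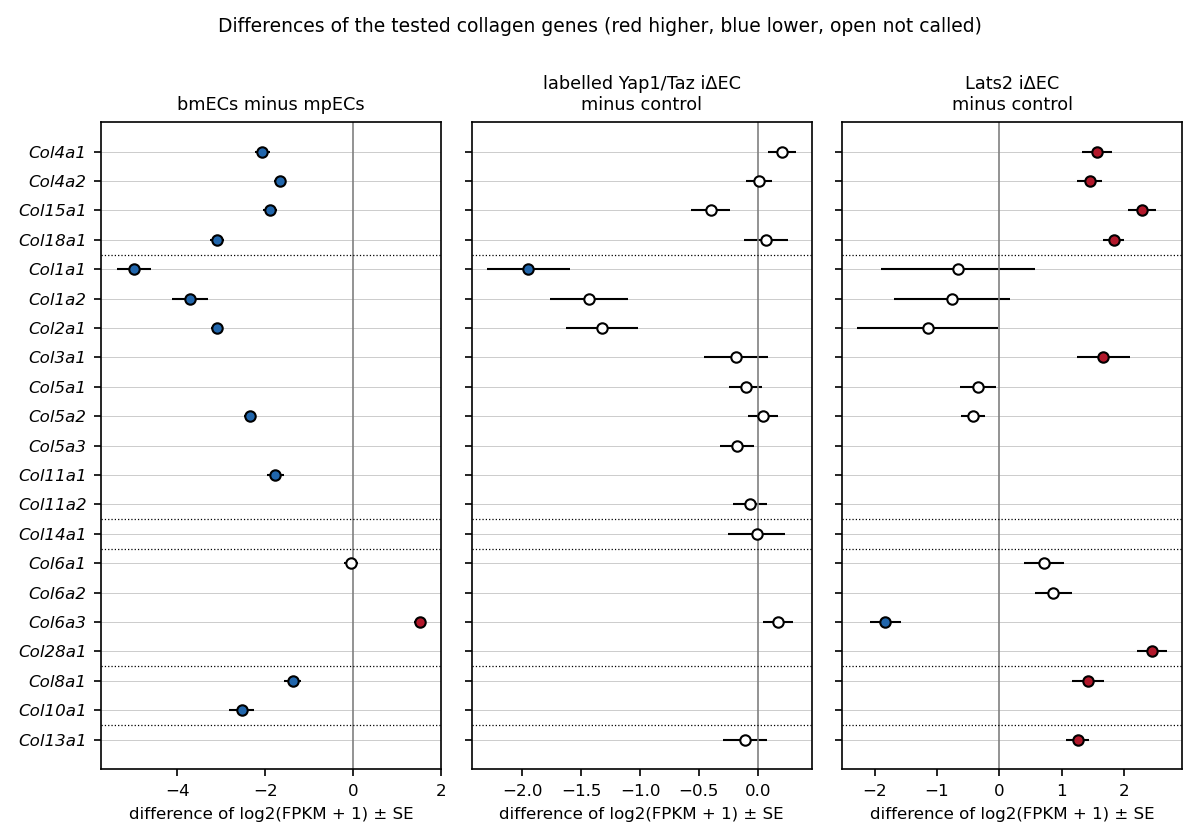
Difference of log2(FPKM + 1) with its SE for each collagen tested, in the 3 comparisons on separate horizontal scales (red higher, blue lower, open not called at an adjusted p under 0.05, blank not tested). The 4 basement membrane genes lie left of 0 for bmECs minus mpECs, near 0 for the libraries labelled Yap1/Taz iΔEC and right of 0 for Lats2 iΔEC.

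The comparison of the libraries labelled Yap1/Taz iΔEC with their controls asks whether the co-activators alter the collagens that bone ECs express. Only Col1a1 passed the test, and it was lower. The study itself reports more collagen type I, osteocalcin and osteopontin in the femur of these mutants. That result comes from immunostaining of tissue, a different measure from the RNA of sorted ECs. Neither type IV chain nor Col18a1, Col15a1 or Col6a3 passed. In numbers, 1 of 15 collagens tested was lower and none higher, where among 11320 tested genes 0.424% fell and 0.883% rose. No collagen (0) passed the stricter call by limma, which 0.00883% of genes did. At an unadjusted p under 0.05 the collagens counted 4 lower and 0 higher, where 2023 of the 11320 tested genes had such a p in either direction.

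Col1a1 measured 18.2, 19.2 and 25.2 FPKM in the controls and 10.3, 2.61 and 3.33 FPKM in the libraries labelled Yap1/Taz iΔEC (log2 difference -1.95, SE 0.35, adjusted p = 0.0388). Replicate 1 of the labelled group lay between its fellows and the controls. Col1a2 measured 8.33, 9.03 and 15.9 FPKM against 6.62, 2.16 and 2.32 FPKM and missed the threshold (log2 difference -1.44, SE 0.33, adjusted p = 0.0654). Col2a1 measured 3.76, 4.58 and 1.21 FPKM against 0.749, 0.371 and 0.557 FPKM and missed it too (log2 difference -1.32, SE 0.31, adjusted p = 0.0655). None of these genes overlapped between groups, as was the case for 23.6% of all tested genes (11.3% lower, 12.3% higher). The Col1a1 call depended on single libraries, although its difference stayed between -2.45 and -1.63. Of the 6 fits that left out 1 library, 5 gave it an adjusted p of 0.0544 to 0.184, in fits that called 1 to 114 genes in all in place of 148, and the fit without labelled replicate 1 called both Col1a1 and Col1a2. Without control replicate 3 Col2a1 was called in place of Col1a1.

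Osteoblast markers were low in these files, and 2 of the 5 tested fell. The 10 markers, led by Spp1 (osteopontin), summed to 14.1 to 20.8 FPKM in the controls and 8.49 to 14.5 FPKM in the labelled libraries. Bglap measured 1.70, 1.88 and 2.61 FPKM in the controls and 0.693, 0.277 and 0.285 FPKM in the labelled libraries (log2 difference -1.11, SE 0.20, adjusted p = 0.0387), and Bglap2 fell as well, while Dmp1 and Mepe were listed at 0 throughout. The other markers tested did not pass, with log2 differences of -0.63 for Spp1, -0.60 for Ibsp and 0.08 for Runx2. Under the filter, Alpl lay lower in the labelled libraries, at 0.382 to 0.611 against 0.627 to 0.801 FPKM in the controls. Sp7 lay higher, at 0.0606 to 0.235 against 0 to 0.0556 FPKM. Labelled replicate 1 was the highest of its group for Bglap and for Col1a1 alike. Chondrocyte markers stood at 0.691 to 1.30 against 0.455 to 0.835 FPKM in sum, with Cytl1 at 0 throughout. The part of these cells in the Col1a1 difference was not tested.

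The type IV genes Col4a1 and Col4a2 had the highest levels of all collagens in these files, and no basement membrane collagen passed the test. Col4a1 measured 245, 235 and 204 FPKM in the controls and 231, 271 and 289 FPKM in the labelled libraries (log2 difference 0.21, SE 0.12, adjusted p = 0.404). Col4a2 measured 132, 137 and 120 against 117, 128 and 147 FPKM (log2 difference 0.01, SE 0.11, adjusted p = 0.981). Col18a1 measured 24.6, 19.7 and 14.5 against 16.6, 21.1 and 23.4 FPKM (log2 difference 0.07, SE 0.18, adjusted p = 0.890). Each of these genes overlapped between the groups. Col15a1 measured 8.93, 7.80 and 5.52 against 4.62, 5.90 and 5.38 FPKM (log2 difference -0.40, SE 0.16, adjusted p = 0.239), and Col6a3 18.1, 22.0 and 19.3 against 18.6, 24.0 and 24.8 FPKM (log2 difference 0.17, SE 0.13, adjusted p = 0.533).

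The remaining tested collagens, Col3a1, Col5a1, Col5a2, Col5a3, Col11a2, Col13a1 and Col14a1, had log2 differences between -0.18 and 0.05 and adjusted p-values of 0.568 or more. The median difference was -0.18 over 8 fibrillar genes and 0.04 over 4 basement membrane genes, against 0.00 over all genes tested, and without the type I chains and Col2a1 the fibrillar median was -0.10. Among the untested genes, Col4a3, Col8a2, Col16a1 and Col23a1 were separated with the labelled libraries higher and Col11a1, Col19a1 and Col22a1 with them lower, all at low values. Of these Col16a1 had the highest level, at 0.574 to 0.861 FPKM in the controls and 1.04 to 1.46 FPKM in the labelled libraries. Summed fibrillar FPKM over summed basement membrane FPKM was 0.114 to 0.165 in the controls and 0.0427 to 0.0887 in the labelled libraries, a mean log2 difference of -1.25 that was -0.44 without type I. Within pairs of chains, Col4a1 over Col4a2 was 1.70 to 1.86 against 1.96 to 2.11, and Col6a3 over Col6a1 was 16.3 to 19.8 against 25.6 to 36.3.

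None of 16 folding genes or 5 receptors passed the test in the Yap1/Taz files, and of 7 genes for processing and crosslinking only Pxdn did. Peroxidasin, its product, crosslinks the type IV collagen network through sulfilimine bonds. Pxdn measured 16.4, 18.1 and 16.0 FPKM in the controls and 23.7, 25.0 and 26.04 FPKM in the labelled libraries (log2 difference 0.54, SE 0.10, adjusted p = 0.0387). Its control and labelled libraries were apart, while those of the type IV genes overlapped. Endothelial markers lay higher in the labelled libraries as well, at 646 to 755 FPKM in sum against 554 to 563 FPKM in the controls. All 10 had positive log2 differences (median 0.36), and 0 of them passed the test. Their part in the differences of Pxdn and Wwtr1 and in the values of the basement membrane collagens was not tested.

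**Figure D4:**
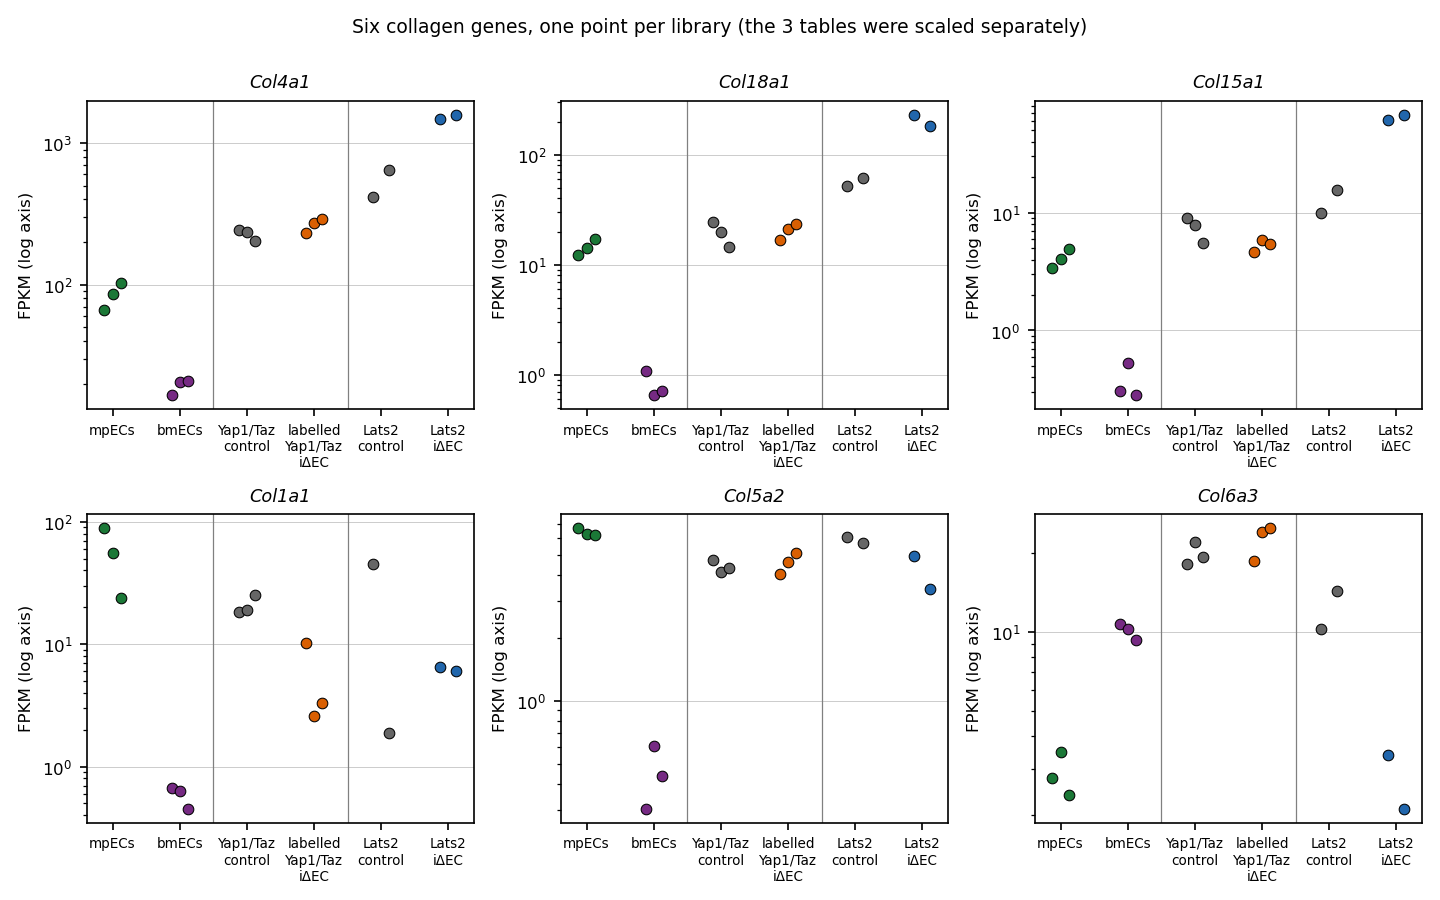
FPKM of 6 collagen genes on log axes, 1 point per library, with the 3 data sets separated by vertical lines. Col4a1, Col18a1 and Col15a1 are lowest in bmECs and highest in Lats2 iΔEC, while Col6a3 has its low values in mpECs and Lats2 iΔEC. The data sets were scaled separately, so levels across the lines are not tested.

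The comparison of Lats2 iΔEC with control asks what follows when the kinase that restrains Yap1 and Taz is targeted in ECs. All 4 basement membrane collagens tested rose, together with Col3a1, Col8a1, Col13a1 and Col28a1, and Col6a3 fell. In numbers, 8 of 16 collagens tested were higher and 1 lower, where the shares among 12451 tested genes were 11.8% higher and 9.98% lower. A stricter call (adjusted p under 0.01 and a log2 difference over 0.5), which 2.06% of genes passed, left 3 higher and 0 lower. With 2 libraries a group the calls lean on each library: 0 collagens were called without control replicate 1 or without control replicate 2, when limma called no gene at all in either fit, although 2724 and 2878 genes, among them 10 and 8 collagens higher and 1 and 4 lower, had an unadjusted p under 0.05. Without Lats2 iΔEC replicate 1 there were 6 higher and 1 lower, and without replicate 2 there were 3 higher and 0 lower. A library left alone in its group is assumed in these fits to vary like the other group.

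Col4a1 measured 416 and 644 FPKM in the controls and 1473 and 1577 FPKM in Lats2 iΔEC (log2 difference 1.56, SE 0.24, adjusted p = 0.0157). Col4a2 measured 249 and 353 against 768 and 849 FPKM (log2 difference 1.44, SE 0.20, adjusted p = 0.0134). The lower mutant library was more than the higher control library in both, and groups were apart in this way for 68.2% of all tested genes (34% higher, 34.2% lower). By ratio of means the chains were 2.88-fold and 2.69-fold higher, and Col4a1 stayed at 1.67 to 1.83 times Col4a2 in the controls and 1.86 to 1.92 times in Lats2 iΔEC.

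Col18a1 rose from 51.8 and 61.8 FPKM to 229 and 181 FPKM (log2 difference 1.83, SE 0.17, adjusted p = 0.00809). Col15a1 rose more, from 9.88 and 15.6 FPKM to 61.7 and 67.4 FPKM (log2 difference 2.29, SE 0.22, adjusted p = 0.00900), a 5.07-fold ratio of means. Col18a1 was 3.96 to 5.24 times Col15a1 in the controls and 2.68 to 3.71 times in the mutants. The median over the 4 genes was 1.69 against 0.00 over all genes tested. As a class, basement membrane collagens summed to 727 and 1074 FPKM in the controls and to 2533 and 2674 FPKM in Lats2 iΔEC, where they made up 97.4% to 97.7% of the collagen signal.

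Beside them, collagens of lower abundance rose. Col28a1, which is related to type VI collagen and best known from peripheral nerve, measured 1.27 and 0.859 FPKM in the controls and 8.34 and 12.3 FPKM in Lats2 iΔEC (log2 difference 2.44, SE 0.24, adjusted p = 0.00909), the largest difference among the 16. Col8a1 measured 3.19 and 4.94 against 14.7 and 10.2 FPKM (log2 difference 1.41, SE 0.25, adjusted p = 0.0214). Col13a1 measured 2.09 and 2.63 against 6.39 and 7.63 FPKM (log2 difference 1.25, SE 0.18, adjusted p = 0.0142). These genes all had their mutant libraries above their control libraries. Col3a1, the collagen of reticular fibers and vessel walls, measured 1.80 and 1.38 against 4.30 and 11.7 FPKM (log2 difference 1.66, SE 0.42, adjusted p = 0.0475), and its mutant libraries differed from each other by more than those of the other genes.

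Col6a3 fell from 10.2 and 14.3 FPKM to 3.39 and 2.12 FPKM (log2 difference -1.83, SE 0.25, adjusted p = 0.0130). The other type VI chains lay the other way without passing the test, Col6a1 at 3.07 and 1.497 against 3.39 and 5.23 FPKM (log2 difference 0.71, SE 0.31, adjusted p = 0.163) and Col6a2 at 0.217 and 0.727 against 1.40 and 1.88 FPKM (log2 difference 0.86, SE 0.30, adjusted p = 0.0979). Col6a3 over Col6a1 was 3.33 and 9.58 in the controls and 1.00 and 0.405 in Lats2 iΔEC.

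Fibrillar collagens other than Col3a1 did not pass the test, and control replicate 1 stood apart for Col1a1, Col1a2 and Col2a1. Col1a1 measured 44.9 and 1.90 FPKM in control replicates 1 and 2 and 6.46 and 6.09 FPKM in Lats2 iΔEC (log2 difference -0.66, SE 1.24, adjusted p = 0.725). Col1a2 measured 15.4 and 1.12 against 2.29 and 2.66 FPKM, and Col2a1 10.4 and 0.0280 against 0.132 and 1.10 FPKM. In each, both mutant libraries lay between the controls. Without control replicate 1 the fibrillar median over 5 genes was 0.71 in place of -0.54 over 6, and the difference of Col1a1 was 1.33 with an adjusted p of 0.132. That library also held more osteoblast and chondrocyte RNA than its fellow, with Bglap at 4.88 against 0.816 FPKM and chondrocyte markers at 4.19 against 0.445 FPKM in sum. The same library held Col9a3 at 1.93 FPKM, where replicate 2 listed it at 0.

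Col5a2, which was even between the controls, measured 6.06 and 5.68 FPKM in the controls and 4.94 and 3.41 FPKM in Lats2 iΔEC (log2 difference -0.42, SE 0.20, adjusted p = 0.181). Col5a1 measured 1.56 and 2.14 against 0.811 and 1.75 FPKM (log2 difference -0.35, SE 0.29, adjusted p = 0.432). Summed fibrillar over summed basement membrane FPKM was 0.113 and 0.0123 in the controls and 0.00781 and 0.0112 in Lats2 iΔEC, and the mean log2 difference of -1.99 became -0.39 without control replicate 1.

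**Figure D5:**
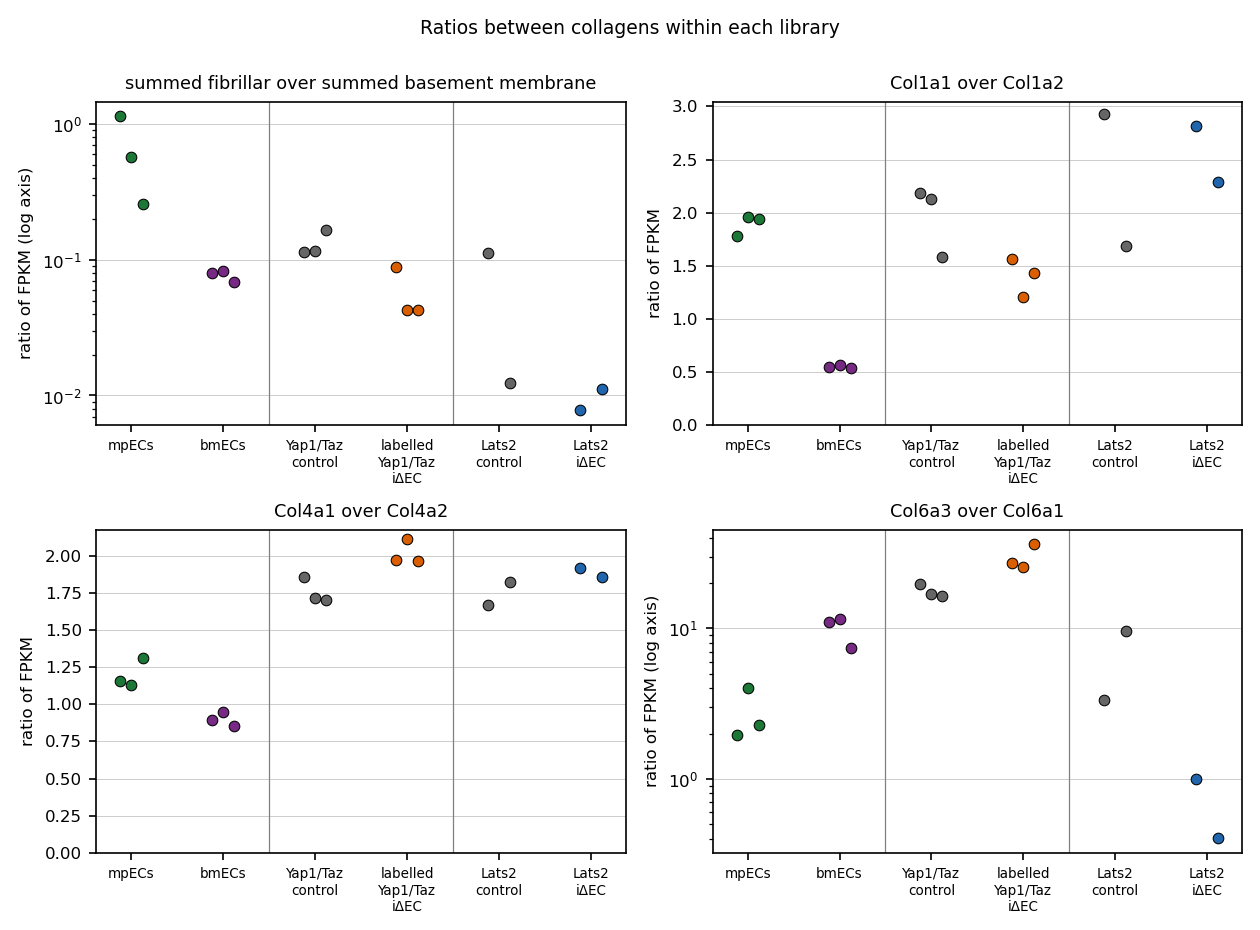
Ratios of FPKM within each library, 1 point per library, for summed fibrillar over summed basement membrane collagens and for the chain pairs of types I, IV and VI. The fibrillar ratio of mpECs (0.259 to 1.14) lies above that of every other group, and Col6a3 over Col6a1 lies between 0.405 and 1.00 in Lats2 iΔEC.

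Some of the pericyte and marrow stroma markers rose and others fell between the Lats2 groups. In sum they were 489 and 583 FPKM in the controls and 146 to 170 FPKM in Lats2 iΔEC, with Abcc9 and Kcnj8 lower and Acta2, Rgs5 and Cxcl12 higher. Acta2, smooth muscle actin, measured 0.339 and 2.17 against 9.22 and 9.93 FPKM (log2 difference 2.36, SE 0.42, adjusted p = 0.0208), and Pdgfrb 0.587 and 0.215 against 1.69 and 3.63 FPKM. Spp1, on the osteoblast list, was higher by 2.68 (SE 0.41, adjusted p = 0.0161), while the other members tested, Bglap (-0.96), Ibsp (-0.34) and Alpl (-0.03), did not pass and Mepe was at 0 throughout. Endothelial markers summed to 2176 to 2339 FPKM in the controls and 2309 to 2329 FPKM in Lats2 iΔEC, but of the 10 tested Pecam1 and Ramp2 were higher (0.85, SE 0.13, and 0.57, SE 0.14) and Kdr and Tek lower (-0.95, SE 0.17, and -1.35, SE 0.24). Blood markers, led by Hbb-bs, summed to 2762 and 2051 FPKM in the controls and 1090 and 419 FPKM in Lats2 iΔEC, with none at 0 throughout and 2 of the 8 tested, Cd79a and S100a8, lower. The part of mural, stromal or blood cells in the differences of Col3a1, Col6a3 and the type IV genes was not tested.

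Of 18 genes for folding and modification tested in Lats2 iΔEC, 7 were higher and 2 lower. Serpinh1 (HSP47), the collagen chaperone, measured 839 and 934 FPKM in the controls and 1398 and 1514 FPKM in the mutants (log2 difference 0.72, SE 0.15, adjusted p = 0.0308). P4ha2, a prolyl 4-hydroxylase subunit, and Fkbp14, a peptidyl-prolyl isomerase, were higher by 0.99 (SE 0.18) and 0.97 (SE 0.18). Leprel1 (P3h2) was lower, at 39.1 and 39.5 against 14.1 and 11.4 FPKM (log2 difference -1.56, SE 0.14, adjusted p = 0.00809). Its product 3-hydroxylates prolines of type IV collagen, whose genes moved the other way. Of 9 processing genes 3 were higher and none lower, namely Pcolce at 3.21 and 2.81 against 12.3 and 12.9 FPKM (log2 difference 1.76, SE 0.14), Tll1 by 1.72 (SE 0.26) and Bmp1 by 1.61 (SE 0.18). Bmp1 and Tll1 are proteinases that remove the C-propeptides of fibrillar procollagens, and Pcolce enhances that step. Of 3 receptors tested Itgb1 was higher by 0.61 (SE 0.13, adjusted p = 0.0329).

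Since Yap1 and Taz act through TEAD factors, the stretch before the start site of collagens that moved in Lats2 iΔEC was searched for the TEAD core motif CATTCC on both strands (GGAATG on the reverse). RefSeq (GRCm38.p6) gave 38 start sites for 35 of the 44 genes, and the 250 bases before each were read. The motif stood in 4 of these 38 windows (10.5%), against 12.6% of 32851 windows over all genes, and in 2 of 9 windows (22.2%) of the collagens higher in Lats2 iΔEC. The latter were Col3a1, 168 bases before the start, and an inner start of Col18a1 with matches that begin 104 and 54 bases before it, in a window that lies over annotated exons for 241 of its 250 bases and is not shown. Shown 5′ to 3′, with the motif in capitals where present, are the windows of the collagens with the largest rises (Col28a1, chr6:8192618-8192867, minus strand, and Col15a1, chr4:47207762-47208011, plus strand), of a higher gene with a match (Col3a1, chr1:45311288-45311537, plus strand) and of the gene that fell (Col6a3, chr1:90843972-90844221, minus strand). None overlaps an exon of GENCODE M21.
Col28a1: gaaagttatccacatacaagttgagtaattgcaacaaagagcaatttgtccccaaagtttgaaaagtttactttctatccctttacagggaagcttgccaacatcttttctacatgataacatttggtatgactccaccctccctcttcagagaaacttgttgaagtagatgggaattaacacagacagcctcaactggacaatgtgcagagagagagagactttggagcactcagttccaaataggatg
Col15a1: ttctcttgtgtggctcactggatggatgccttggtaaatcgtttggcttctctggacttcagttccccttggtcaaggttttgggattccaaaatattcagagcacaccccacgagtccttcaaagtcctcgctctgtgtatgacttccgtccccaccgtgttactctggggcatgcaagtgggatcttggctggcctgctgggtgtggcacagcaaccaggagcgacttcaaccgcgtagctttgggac
Col3a1: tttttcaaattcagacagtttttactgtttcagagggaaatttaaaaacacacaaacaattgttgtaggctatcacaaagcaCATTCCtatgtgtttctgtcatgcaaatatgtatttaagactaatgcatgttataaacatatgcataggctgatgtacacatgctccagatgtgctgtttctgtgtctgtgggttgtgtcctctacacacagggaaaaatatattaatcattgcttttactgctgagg
Col6a3: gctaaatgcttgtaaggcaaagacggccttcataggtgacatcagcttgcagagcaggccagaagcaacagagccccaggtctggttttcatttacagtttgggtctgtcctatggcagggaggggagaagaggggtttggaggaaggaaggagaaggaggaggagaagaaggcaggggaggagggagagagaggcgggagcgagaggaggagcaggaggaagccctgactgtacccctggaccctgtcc
Col28a1, Col15a1 and Col6a3 hold no capitals, and the letters say nothing on sites outside these windows. The start windows of Col4a1 and Col4a2, which lie wholly over annotated exons, hold no match either.

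Set side by side, the wildtype zones and the Lats2 mutants moved the same collagens in opposite directions. Col4a1, Col4a2, Col15a1, Col18a1 and Col8a1 were lower in bmECs than in mpECs and higher in Lats2 iΔEC than in control, and Col6a3 was the reverse in both. These 6 were all the collagens called in both comparisons, which share no library. The pattern is not particular to collagens, because 919 of the 972 genes called in both (94.5%) went in opposite directions. Col1a1, Col1a2, Col2a1 and Col5a2 were outside it, since they were lower in bmECs and passed the test in neither direction in Lats2 iΔEC, and in the libraries labelled Yap1/Taz iΔEC the 6 genes had log2 differences between -0.40 and 0.21, or no test in the case of Col8a1.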

How the data were processed

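ECs were sorted from mouse bone and their total RNA sequenced in 16 libraries. The values are FPKM that the authors deposited, 1 set for each of 3 data sets that were scaled separately. Per the methods and the submitters' processing notes, reads were aligned to GRCm38 (mm10) with TopHat and counted with HTSeq 0.6.1. The step from counts to FPKM and the strand setting are not given in the sources used here, and the Yap1/Taz files name no unit, so FPKM is taken there from the methods and the values. Overlapping genes such as Col4a1 and Col4a2 may share reads at their ends.

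From the deposited FPKM, log2(FPKM + 1) was tested with limma 3.58.1 (R 4.3.3, with trend, empirical Bayes, two-sided) over every gene whose mean over a comparison's libraries reached 1 FPKM, with Benjamini-Hochberg adjustment over all of these and a call at an adjusted p under 0.05. Only the groups compared entered a fit, with no covariate. For Lats2, 4 rows with a repeated gene name were left out. Each value of up to 20 reads was compared with whole reads, and 50.5% to 67.9% lay within 0.02 of a whole number, so depth is approximate and no count test was run. The fit was tested on simulated data. Values in every library are given for collagens that were called or had a mean of at least 5 FPKM. Up to 3 called genes with the largest difference were named from each list of collagen enzymes and receptors, and the most abundant gene from each marker list. Serpinh1 in the Lats2 comparison, the other markers named and the cartilage grouping were chosen after their values were seen. Members, lists and rules were chosen with earlier results of these data known. Alternatives were another pseudocount, other filters, quantile and median-of-ratios scaling, rescaling to TPM, no trend, a stricter call, a replicate block and leaving out each library. No column was without a sample (0).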

Additional observations from a re-analysis of the deposited data

How the results depend on the processing

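Between bmECs and mpECs, 174 gene-level values recomputed under the alternatives kept their call. Col6a1, not called, changed sign, to 0.05 with quantile normalization and to between -0.13 and 0.06 on leaving out 1 library. Without a filter 2 collagens were higher and 17 lower, and with a mean of at least 5 FPKM 5 were lower. The fibrillar median was -4.50 with a pseudocount of 0.1, -0.58 without a filter, -4.35 with the filter at 5 FPKM and -3.62 after rescaling to TPM, and the basement membrane median was -2.64, -0.83 and -2.40 with that pseudocount, without a filter and after rescaling. The ratio of summed fibrillar to basement membrane FPKM without Col1a1 and Col1a2 was -1.56. Rescaling to TPM moved the median of all genes by -0.14 here and by -0.25 in the Lats2 comparison. Leaving out 1 library gave 10 to 11 collagens lower.

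In the Yap1/Taz comparison 192 gene-level values kept their call, 2 gained and 8 lost it. The number of collagens lower was 0 by limma without a filter, after rescaling to TPM, without the trend and at the stricter call, and 0 to 2 on leaving out 1 library. At an unadjusted p under 0.05, 4 were lower in each of the first 3 settings, and 2 were higher without a filter. Among all genes 2338 of 16044, 2237 of 12683 and 1969 of 11320 had such a p in these settings. All genes called numbered 148, but 1 without a filter, 70 after rescaling, 17 without the trend and 1 to 293 on leaving out 1 library. The fibrillar median was -1.69 with the filter at 5 FPKM, and the ratio without type I was -0.44.

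In the Lats2 comparison 153 gene-level values kept their call and 30 lost it. The number higher was 5 without a filter, 3 at the stricter call and 0 to 6 on leaving out 1 library; the number lower was 0 at the stricter call and 0 to 1 on leaving out 1 library. The fibrillar median ranged from -1.35 to 0.71 on leaving out 1 library, and the basement membrane median was 0.74 without a filter and 1.43 after rescaling. All genes called numbered 2711, but 1389 without a filter and 0 to 2701 on leaving out 1 library. The causes of these shifts were not tested.

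Same-numbered libraries did not all correlate above 0.1 in their deviations from the group means (correlations of 0.307, 0.0876 and 0.102 for mpECs and bmECs, -0.175, -0.123 and -0.155 for Yap1/Taz, 0.0651 for Lats2), so they were not treated as paired, though all 3 correlations were positive for mpECs and bmECs. With the replicate block, 1 collagen was higher and 11 lower in bmECs, 0 higher and 1 lower in the Yap1/Taz comparison and 8 higher and 1 lower in Lats2 iΔEC, and all genes called numbered 3072, 45 and 2655. Depth limits the collagens near 0 FPKM, where single reads decide whether a value is above 0.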

Other observations

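Some collagens of low abundance had their highest levels in the Yap1/Taz files, a set scaled separately from the others, so the levels are given without a test. Col11a2 lay at 3.04 to 4.16 FPKM in all 6 of those libraries. In the other data sets it lay at 0.0124 to 0.640 FPKM in mpECs and bmECs and at 0.0588 to 0.853 FPKM in the Lats2 libraries. Col11a1, whose chain pairs with that of Col11a2 in cartilage, stayed at 0.0354 to 0.418 FPKM in the Yap1/Taz files. Col14a1 lay at 1.61 to 4.23 FPKM there, against at most 0.528 FPKM elsewhere.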
